A study of Mus musculus with 16 samples.

Results

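The interferon regulatory factor (IRF) genes Irf1, Irf2, Irf3, Irf4, Irf5, Irf7, Irf8 and Irf9 were followed by symbol through the 16 count tables of the study. They are 8 of the 24421 gene symbols counted, and the rule that picks them uses the symbol alone. The libraries were made from M-MDSCs (monocytic myeloid-derived suppressor cells, sorted as CD11b high, Ly6C positive and Ly6G negative) and G-MDSCs (their granulocytic counterparts, Ly6G positive and Ly6C negative). The cells came from spleens of C57BL/6 mice carrying subcutaneous B16.F10 tumors, a transplantable mouse melanoma line that both genotypes received. Of the 8 mice, 4 were wild type (WT) and 4 were Nlrp3-/- animals. In the latter the Nlrp3 gene is disrupted by an EGFP cassette in the germline, and so not in myeloid cells alone. The paper reports that B16.F10 tumors grew less in its Nlrp3-/- mice than in WT mice. Its C57BL/6J mice were purchased, and the Nlrp3-/- mice were provided by another laboratory. The part of tumor size or mouse origin in the values below was not tested. Both subsets of every mouse were sequenced, each library came from a single mouse, and the study's methods describe its mice as age- and sex-matched young adults.

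IRF proteins share a DNA-binding domain that recognizes the interferon-stimulated response element (ISRE) and related sites. Irf3 and Irf7 are held in the cytoplasm until sensors of foreign nucleic acid lead to their phosphorylation, and then switch on the type I interferon genes, while Irf5 acts downstream of Toll-like receptors. Secreted interferon signals back through JAK kinases and STAT proteins, with Irf9 as the DNA-binding subunit of a complex with STAT proteins, and Irf1 and Irf2 bind the same sites with largely opposite activity. Irf4 and Irf8 act with the ETS protein PU.1 in lymphoid and myeloid differentiation, where Irf8 favors monocytes and dendritic cells over granulocytes.

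The libraries held 2295967 to 6079866 counts on genes, and the 8 IRF genes had between 65 and 5760 counts in any of them. Levels are given as CPM (counts per 1000000 counts of the library) after TMM scaling over all libraries, where 3 counts equal 0.348 to 1.17 CPM, and fold changes as log2 of the ratio in each comparison's own fit. Nlrp3 itself had 4 to 11 counts in the M-MDSCs of Nlrp3-/- mice where WT mice had 219 to 632, and 21 to 59 counts in their G-MDSCs where WT mice had 744 to 1365. The 7 granulocytic markers summed to 108836 to 168649 CPM in G-MDSCs and to 1140 to 2176 CPM in M-MDSCs, apart from replicate 2 of the WT M-MDSCs at 6608 CPM. Among M-MDSCs the Nlrp3-/- libraries (1728 to 2176 CPM) lay above the remaining WT ones (1140 to 1493 CPM). Of single granulocytic markers, Retnlg (9.44 to 67.7 CPM in WT and 90.4 to 315 CPM in Nlrp3-/- M-MDSCs) and Mmp9 (2.14 to 11.6 and 14.6 to 32.0 CPM) did not overlap there. The rest overlapped, among them S100a8 (means of 1422 and 955 CPM) and Mmp8 (180 and 175 CPM). The 8 monocytic markers summed to 4464 to 8246 CPM in M-MDSCs and 676 to 1469 CPM in G-MDSCs, and within G-MDSCs the Nlrp3-/- libraries (1199 to 1469) lay above the WT ones (676 to 1091). Singly, only Csf1r (means of 494 CPM in WT and 815 CPM in Nlrp3-/- G-MDSCs) and Cd68 (118 and 203 CPM) did so. The other monocytic markers overlapped there, among them Ccr2 (8.52 and 6.25 CPM), F13a1 (2.29 and 2.82 CPM) and Cx3cr1 (6.46 and 7.69 CPM). The 10 markers of red pulp macrophages, resident spleen cells that clear old red cells, were all detected. Their sum moved with genotype, from 159 to 172 CPM to 269 to 417 CPM in M-MDSCs and from 470 to 788 CPM to 1014 to 1259 CPM in G-MDSCs. Singly, all were higher in Nlrp3-/- mice without overlap, except Spic and Hmox1 in M-MDSCs and Adgre1 in G-MDSCs. Slc40a1 was the largest part of the G-MDSC sum, with a mean of 447 of 654 CPM in WT and 595 of 1172 CPM in Nlrp3-/- mice. The sum of the 8 T and NK cell markers also rose, from 95.1 to 136 CPM to 155 to 268 CPM in M-MDSCs and from 112 to 176 CPM to 179 to 248 CPM in G-MDSCs. Singly, only Gzma (means of 34.0 and 79.4 CPM) separated the genotypes in M-MDSCs, and only Gzma, Nkg7 and Cd4 in G-MDSCs. The T cell markers Cd3e, Cd3d and Cd8a overlapped in both subsets, and the mean of Cd3e went from 16.9 to 14.2 CPM in G-MDSCs. The sum of eosinophil and basophil markers went from 28.7 to 56.7 CPM to 57.9 to 66.3 CPM in G-MDSCs. In M-MDSCs it overlapped (5.52 to 25.97 CPM in WT and 25.01 to 69.3 CPM in Nlrp3-/- mice), and of its markers only Ccr3 did not (1.43 to 11.6 and 13.98 to 47.4 CPM). Singly, all of them overlapped in G-MDSCs. The means of Siglecf (17.2 to 27.9 CPM) and Ccr3 (12.97 to 28.1 CPM) rose most there, and those of Prg2, Il5ra and Epx fell. The sums for B and plasma cells, which express Irf4 and Irf8, overlapped between genotypes (253 to 503 CPM and 258 to 457 CPM in M-MDSCs, 318 to 449.7 CPM and 328 to 455 CPM in G-MDSCs), as did the sums for conventional and plasmacytoid dendritic cells. Single markers within these sums went both ways without overlap. In Nlrp3-/- G-MDSCs Ms4a1 was lower (28.1 to 50.8 CPM against 71.9 to 144 CPM in WT). Cd22 (70.3 to 96.4 against 41.9 to 63.0 CPM) and Cd79b (75.4 to 102 against 40.5 to 64.5 CPM) were higher there. In Nlrp3-/- M-MDSCs Ms4a1 and the dendritic cell marker Tcf4 were lower and Clec10a was higher. The part of these other cells in the IRF values was not tested, and in bulk samples fewer cells of a type cannot be told apart from less RNA per cell.

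The stretches before the transcription start are shown for Irf1, Irf2, Irf7 and Irf8, since interferon signals can reach IRF genes through STAT sites: the windows of Irf1, Irf2 and Irf8 held a match to such a site, and that of Irf7, called between genotypes in both subsets, held none. The windows of Irf3, also called in both subsets, and of Irf4, Irf5 and Irf9 held none either and are not shown. Each run is the 250 bases upstream of the start in RefSeq (GRCm38.p6, 5′ to 3′ along the gene), with capitals for matches to the STAT site GAS, TTCNNNGAA, and to an ISRE core, GAAANNGAAA, on either strand.
Irf1, plus strand, chr11:53769764-53770013: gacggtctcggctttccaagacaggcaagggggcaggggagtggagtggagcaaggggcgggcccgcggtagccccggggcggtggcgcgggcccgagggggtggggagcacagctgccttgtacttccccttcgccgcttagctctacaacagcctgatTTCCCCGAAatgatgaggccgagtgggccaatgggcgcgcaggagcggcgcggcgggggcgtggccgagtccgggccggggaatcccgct
Irf2, plus strand, chr8:46739495-46739744: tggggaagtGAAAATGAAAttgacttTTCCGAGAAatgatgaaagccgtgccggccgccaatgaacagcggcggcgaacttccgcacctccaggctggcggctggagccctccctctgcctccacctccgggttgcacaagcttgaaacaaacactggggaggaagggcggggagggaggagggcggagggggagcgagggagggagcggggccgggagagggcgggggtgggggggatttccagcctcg
Irf7, minus strand, chr7:141266425-141266674: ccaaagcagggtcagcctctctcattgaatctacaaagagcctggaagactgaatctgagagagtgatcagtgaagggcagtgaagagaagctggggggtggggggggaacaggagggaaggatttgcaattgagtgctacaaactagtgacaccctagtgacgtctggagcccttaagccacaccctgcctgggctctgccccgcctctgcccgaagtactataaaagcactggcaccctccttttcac
Irf8, plus strand, chr8:120736108-120736357: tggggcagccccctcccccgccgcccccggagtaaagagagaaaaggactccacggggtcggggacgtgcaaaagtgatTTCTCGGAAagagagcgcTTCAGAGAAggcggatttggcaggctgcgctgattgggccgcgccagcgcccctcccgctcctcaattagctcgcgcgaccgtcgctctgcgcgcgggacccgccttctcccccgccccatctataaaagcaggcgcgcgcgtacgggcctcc

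In these windows, extended to 50 bases past the start, a GAS match was found in 3 of the 8 genes. It began at −90 in Irf1 (TTCCCCGAA), at −224 in Irf2 (TTCCGAGAA), and at −171 and −153 in Irf8 (TTCTCGGAA and TTCAGAGAA). Of 32851 mouse promoter windows of the same length, 8.3% hold such a match. This share and those below are per window. The counts of genes are not, since Irf1, Irf8 and Irf9 had 2 windows each and a match in either was counted. The ISRE core was found in Irf2 alone of the 8 genes, at −241 (GAAAATGAAA), against 3.44% of all windows, and it overlaps an ETS-IRF composite, GGAANNGAAA, at −247 (GGAAGTGAAA), which 2.72% of windows hold. NF-kB matches lay at −13 in Irf1 (GGGGAATCCC) and at −17 in Irf2 (GGGGATTTCC), against 8.46% of windows. An AP-1 match (TGANTCA, 7.81% of windows) or CRE match (TGACGTCA, 1.79%) was in none of the windows of the 8 genes. A match is a description of the letters and shows no binding, and a window without one says nothing about the factor.

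Irf3 and Irf7, the factors activated by nucleic acid sensors, rose in Nlrp3-/- mice in both subsets. With a correction for GC content and transcript length neither gene was called in either subset, and in M-MDSCs each call was lost without certain single libraries, with the values given after the gene-by-gene account. The gene of Irf3 is at chr7:44997648-45002848 (mm10, plus strand) (mm10). In M-MDSCs Irf3 stood at 33.6, 36.8, 35.1 and 32.8 CPM in WT replicates 1 to 4 and at 43.7, 73.1, 74.2 and 48.9 CPM in Nlrp3-/- replicates 1 to 4. The WT values were close together and all below the Nlrp3-/- values, of which replicates 2 and 3 were highest. The log2 fold change was 0.81 (SE, the standard error of the fit, 0.19; adjusted p = 0.0204 by edgeR's quasi-likelihood test, corrected over 9986 genes after Benjamini and Hochberg). In G-MDSCs Irf3 stood at 32.7, 27.4, 45.3 and 32.3 CPM in WT and at 61.6, 54.7, 79.4 and 59.7 CPM in Nlrp3-/- mice, again without overlap. Its log2 fold change there was 0.80 (SE 0.21, adjusted p = 0.0157 in the same edgeR test over 9273 genes). Over the 4 groups Irf3 averaged 63.9 ± 10.8 CPM in Nlrp3-/- G-MDSCs, 59.96 ± 15.96 CPM in Nlrp3-/- M-MDSCs, 34.6 ± 1.75 CPM in WT M-MDSCs and 34.4 ± 7.64 CPM in WT G-MDSCs (SD, n = 4 each). Groups of the same genotype overlapped, and the step in this order fell between the genotypes.

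Irf7, which also amplifies its own induction by interferon, is at chr7:141262706-141266481 (minus strand). In M-MDSCs its level was 135, 95.2, 117 and 106 CPM in WT and 139.9, 177, 218 and 191 CPM in Nlrp3-/- replicates 1 to 4. The groups did not overlap, although WT replicate 1 and Nlrp3-/- replicate 1 were near each other. The log2 fold change was 0.70 (SE 0.17, adjusted p = 0.0231 by edgeR's quasi-likelihood test). In G-MDSCs Irf7 had 167, 119, 121 and 155 CPM in WT and 208, 264, 263 and 299 CPM in Nlrp3-/- mice, and every Nlrp3-/- library lay above every WT library. The log2 fold change was 0.80 (SE 0.17, adjusted p = 0.00525 in the same edgeR test). Its means were 259 ± 37.5 CPM in Nlrp3-/- G-MDSCs, 181 ± 32.4 CPM in Nlrp3-/- M-MDSCs, 140.4 ± 24.2 CPM in WT G-MDSCs and 113 ± 16.9 CPM in WT M-MDSCs (SD, n = 4 each), and each group overlapped the next in this order.

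**Figure D1:**
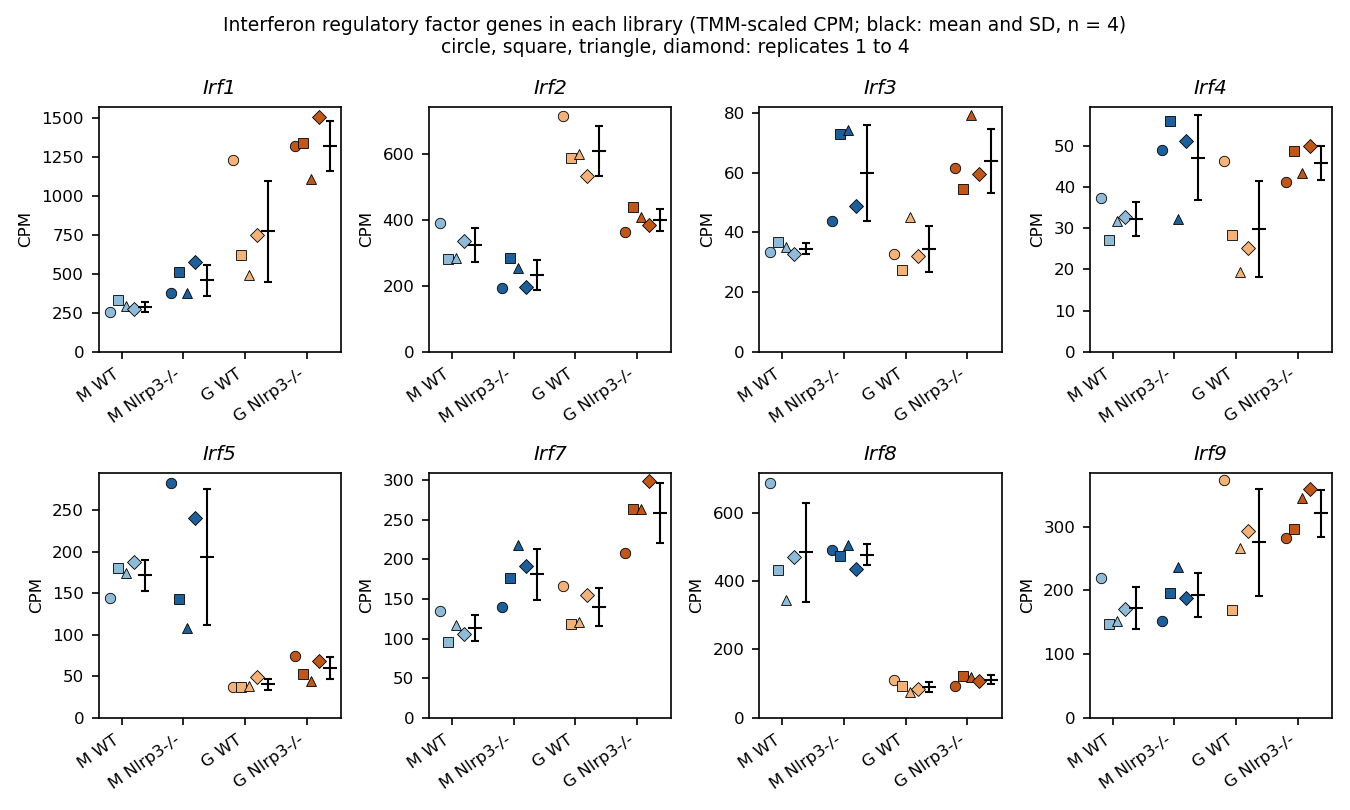
CPM of the 8 IRF genes in each of the 16 libraries, with a panel per gene and its own axis from 0; colors mark the 4 groups, shapes the replicate number, and black marks the mean and SD of 4 libraries. Irf3 and Irf7 stood higher in every Nlrp3-/- library than in any WT library of the same subset, Irf2 was lower in every Nlrp3-/- G-MDSC library, and the Irf5 and Irf8 values of the subsets did not overlap.

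Irf1 and Irf2, an activator and a repressor of the same interferon sites, were called in opposite directions, each in a single subset, and neither call held with the correction for GC content and length. Irf1 is at chr11:53770014-53778374 (plus strand). In M-MDSCs it had 254, 331, 291 and 276 CPM in WT and 376, 509, 375 and 577 CPM in Nlrp3-/- replicates 1 to 4, without overlap, and it rose by 0.70 on the log2 scale (SE 0.18, adjusted p = 0.0279 by edgeR's quasi-likelihood test). In G-MDSCs it had 1228, 620.0, 489.8 and 752 CPM in WT and 1317, 1342, 1112 and 1508 CPM in Nlrp3-/- replicates 1 to 4. There WT replicate 1 lay within the range of the Nlrp3-/- libraries, while the other 3 WT libraries were far below it. The log2 fold change in G-MDSCs was 0.69 (SE 0.23) and missed the threshold (adjusted p = 0.0549 in the edgeR test). Without WT replicate 1 the change was 0.99 with an adjusted p of 0.00338, and it also passed under 7 other settings of the 20 tried, DESeq2 among them (adjusted p = 0.0222). The adjusted p over all these settings ranged from 0.00338 to 0.182.

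Irf2, at chr8:46739732-46847458 (plus strand), was the single IRF gene that fell. In G-MDSCs its level was 717, 589, 602 and 535 CPM in WT and 363, 441, 410.2 and 386 CPM in Nlrp3-/- replicates 1 to 4. All Nlrp3-/- libraries lay below all WT libraries, and the log2 fold change was −0.69 (SE 0.15, adjusted p = 0.00585 by edgeR's quasi-likelihood test). In M-MDSCs it had 391, 283, 286 and 336 CPM in WT and 193, 286, 256 and 198 CPM in Nlrp3-/- mice, where Nlrp3-/- replicate 2 reached into the WT range. The log2 fold change of −0.45 (SE 0.17) did not pass (adjusted p = 0.104 in the edgeR test). Scaled by library size only, the G-MDSC change was −0.57 with an adjusted p of 0.0161 and no longer exceeded 1.5-fold.

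Irf5, the Toll-like receptor factor at chr6:29526625-29541871 (plus strand), varied most in Nlrp3-/- M-MDSCs. Its level there was 283, 143, 108 and 241 CPM in replicates 1 to 4, against 144.7, 180.4, 174 and 188 CPM in WT. Replicates 1 and 4 lay above and replicates 2 and 3 below all WT libraries, and the log2 fold change was 0.21 (SE 0.28, adjusted p = 0.643 by edgeR's quasi-likelihood test). In the same 4 libraries Irf3 and Irf2 had the reverse order, with replicates 2 and 3 above replicates 1 and 4. In G-MDSCs Irf5 had 36.7, 36.5, 37.8 and 49.3 CPM in WT and 74.3, 53.0, 44.3 and 68.3 CPM in Nlrp3-/- mice, and only WT replicate 4 and Nlrp3-/- replicate 3 overlapped. The log2 fold change was 0.49 (SE 0.21, adjusted p = 0.116 in the edgeR test).

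Irf9, the DNA-binding subunit of the interferon-activated STAT complex, is at chr14:55603571-55610030 (plus strand), where in the GENCODE annotation its first bases overlap the end of Rnf31 on the same strand. In M-MDSCs it had 219, 147, 152 and 170.0 CPM in WT and 152, 196, 236 and 189 CPM in Nlrp3-/- mice. In G-MDSCs it had 372, 169.5, 266 and 293 CPM in WT and 282, 296, 344 and 359.5 CPM in Nlrp3-/- mice. The genotypes overlapped in both subsets, and the log2 fold changes were 0.19 (SE 0.18, adjusted p = 0.502) and 0.14 (SE 0.20, adjusted p = 0.675 by edgeR's quasi-likelihood test).

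Irf4 and Irf8 are the partners of PU.1. Irf8, at chr8:120736358-120756694 (plus strand), had 685, 433, 344 and 471 CPM in WT and 492, 472, 506 and 436 CPM in Nlrp3-/- M-MDSCs, with WT replicate 1 high and the Nlrp3-/- libraries inside the WT range. In G-MDSCs it had 110.0, 94.2, 75.8 and 84.7 CPM in WT and 92.7, 122, 118 and 108 CPM in Nlrp3-/- mice. The log2 fold changes were 0.01 (SE 0.20, adjusted p = 0.988) in M-MDSCs, where the sign was negative under 5 of the scaling, filter and correction alternatives and in the model of all 16 samples, and 0.19 (SE 0.17, adjusted p = 0.468 by edgeR's quasi-likelihood test) in G-MDSCs. Irf4, at chr13:30749226-30766976 (plus strand), had 37.3, 27.2, 31.9 and 32.8 CPM in WT and 49.0, 56.2, 32.3 and 51.2 CPM in Nlrp3-/- M-MDSCs. In G-MDSCs it had 46.3, 28.4, 19.4 and 25.3 CPM in WT and 41.3, 48.8, 43.4 and 50.0 CPM in Nlrp3-/- mice. A single library kept the genotypes from separating in each subset, namely Nlrp3-/- replicate 3 among M-MDSCs and WT replicate 1 among G-MDSCs, the same mouse whose G-MDSCs were high in Irf1. The log2 fold changes of Irf4 were 0.58 (SE 0.20, adjusted p = 0.0783) and 0.54 (SE 0.25, adjusted p = 0.145 in the edgeR test), and without those libraries they were 0.73 (adjusted p = 0.0254) and 0.82 (adjusted p = 0.0214). Without any other library they were 0.44 to 0.62 (adjusted p = 0.0927 to 0.217) and 0.39 to 0.60 (adjusted p = 0.152 to 0.278 in the edgeR test).

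**Figure D2:**
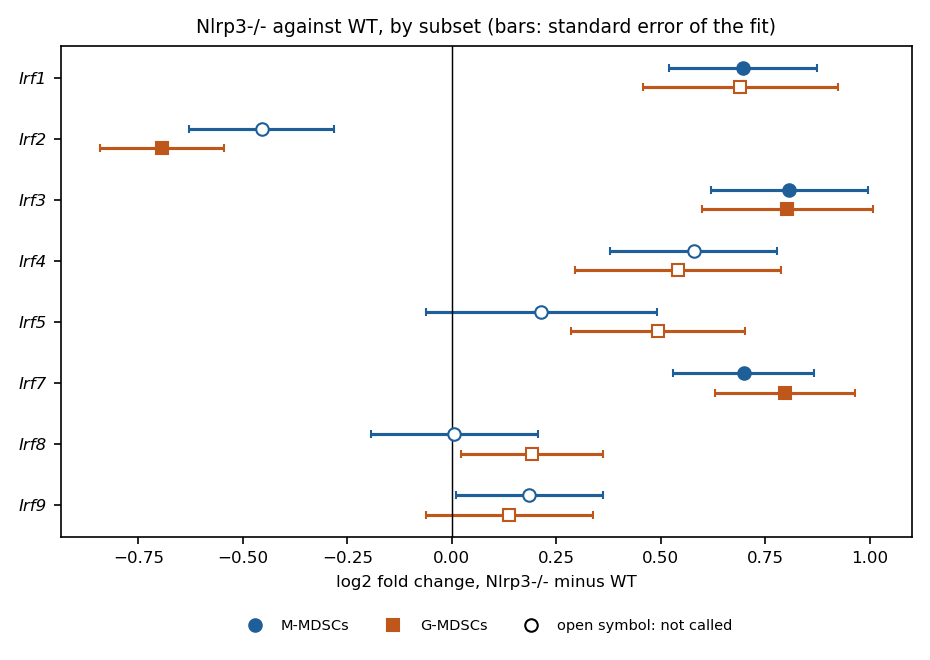
Log2 fold change of each IRF gene between Nlrp3-/- and WT mice, for M-MDSCs (circles) and G-MDSCs (squares), with the standard error of the fit and filled symbols for called genes. Irf3 and Irf7 were called in both subsets, Irf1 in M-MDSCs and Irf2, at −0.69, in G-MDSCs, while Irf8 and Irf9 lay near 0.

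Genes with an adjusted p below 0.05 that differed by over 1.5-fold were called. By this rule 3 of the 8 IRF genes were higher and 0 lower in Nlrp3-/- M-MDSCs, where 10.6% of the 9986 genes tested were called, 3.51% higher and 7.1% lower. In G-MDSCs 2 were higher and 1 was lower, where 16.4% of the 9273 genes tested were called, 4.7% higher and 11.7% lower. The 8 genes had a median log2 fold change of 0.40 (M-MDSCs) and 0.52 (G-MDSCs), against 0.07 and 0.03 over all genes tested. The genotypes did not overlap for 3 of the 8 genes in each subset, as for 19.3% of all genes tested among M-MDSCs and 24.3% among G-MDSCs. The same 8 mice gave both subsets, so these counts are not independent of each other.

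The M-MDSC calls depended on single libraries. The 3 genes all missed the threshold without WT replicate 3, without WT replicate 4 and without Nlrp3-/- replicate 2, with adjusted p-values of 0.0513 to 0.088 by edgeR. Irf7 alone passed without WT replicate 1, and Irf3 alone without Nlrp3-/- replicate 4. Irf7 also missed it without WT replicate 2 (adjusted p = 0.0725), the library high in granulocytic markers, and without Nlrp3-/- replicate 3 (adjusted p = 0.0539). In G-MDSCs Irf2 and Irf7 passed whichever of the 8 libraries was left out, and Irf3 missed the threshold without Nlrp3-/- replicate 3 (0.68, adjusted p = 0.0551).

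The calls also moved with a property of the transcripts. Genes called higher in Nlrp3-/- mice had a median GC content of 55.2% in M-MDSCs and 54.6% in G-MDSCs, those called lower 44.5% and 44.9%, and all tested genes 49.9% in either subset. The transcripts of Irf3 and Irf7 have a GC content of 56.7% and 55.3%, that of Irf1 52.8% and that of Irf2 46.8%. These values are of the longest transcript of a gene, a coding one where there is one, while the libraries were made from 3′ ends. A correction by them would also take away a genotype difference that follows GC content. When each library was corrected for GC content and transcript length, the log2 fold changes in M-MDSCs became 0.55 for Irf1, 0.52 for Irf3 and 0.47 for Irf7, none of them called (adjusted p = 0.083, 0.111 and 0.0964 by edgeR), and Irf4 was called at 0.78 (adjusted p = 0.0344). In G-MDSCs they became −0.55 for Irf2 and 0.54 for Irf7, with adjusted p-values of 0.0429 and 0.0461 but less than 1.5-fold, and 0.49 for Irf3 (adjusted p = 0.125). All kept their direction.

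**Figure D3:**
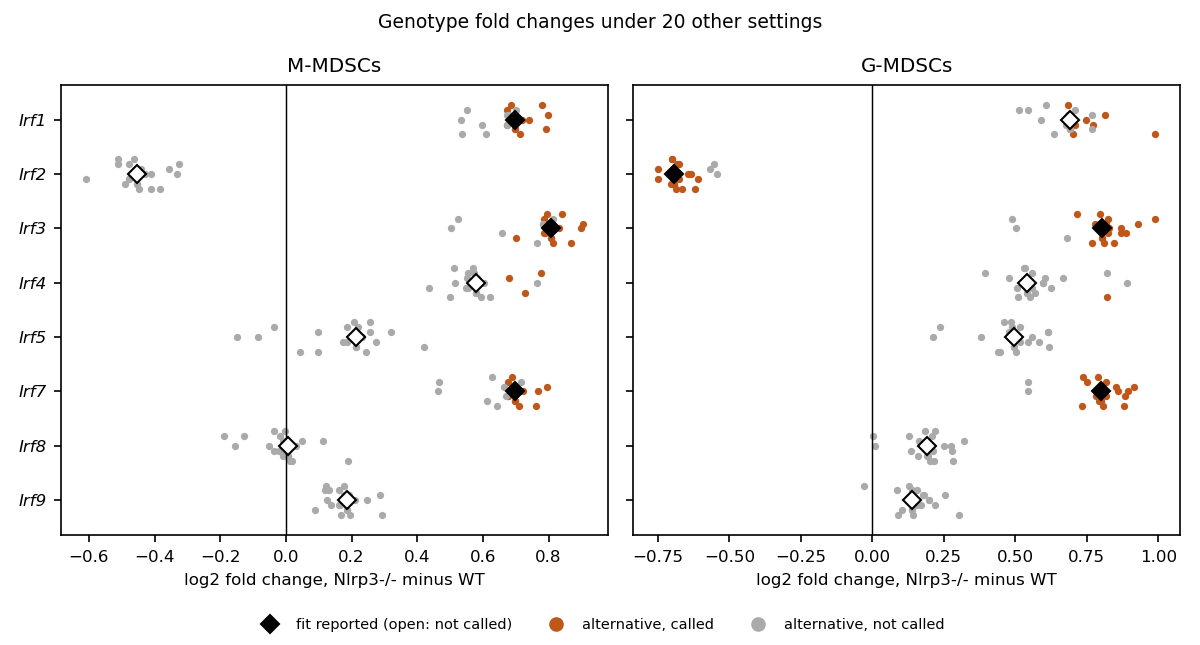
Log2 fold changes between Nlrp3-/- and WT mice in the reported fit (diamonds, open where not called) and in 20 other settings, among them other scalings, filters and tests, a correction for GC content and length, and fits without a library; orange points were called. Irf1, Irf3, Irf4 and Irf7 stayed above 0 and Irf2 below 0 in each of them in both subsets, while their calls varied and Irf5 and Irf8 in M-MDSCs and Irf9 in G-MDSCs crossed 0.

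Between the subsets the family divided. Irf8 and Irf5 were higher in M-MDSCs, Irf3, Irf4 and Irf7 were not called, and Irf1, Irf2 and Irf9 were higher in G-MDSCs, although with library size only in place of TMM the sign turned for Irf9 and, in Nlrp3-/- mice, for Irf2. In WT mice Irf8 fell from 483 ± 145 CPM in M-MDSCs to 91.2 ± 14.6 CPM in G-MDSCs and in Nlrp3-/- mice from 476 ± 30.6 to 110.4 ± 13.2 CPM (SD, n = 4 each). These are log2 fold changes of −2.40 (SE 0.22, adjusted p = 2.99e-06) and −2.22 (SE 0.15, adjusted p = 3.05e-08 by edgeR's quasi-likelihood test). Irf5 went from 172 ± 18.9 to 40.1 ± 6.22 CPM in WT and from 194 ± 81.8 to 59.97 ± 13.8 CPM in Nlrp3-/- mice, log2 fold changes of −2.10 (adjusted p = 8.28e-07) and −1.82 (adjusted p = 0.000132 in the edgeR test). For both genes every G-MDSC library lay below every M-MDSC library of its genotype. Without M-MDSC WT replicate 2, the library high in granulocytic markers, the WT changes were −2.52 for Irf8 and −2.13 for Irf5, and Irf1 and Irf2 also kept their calls.

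Irf1 averaged 288 ± 32.1 CPM in WT M-MDSCs against 773 ± 322 CPM in WT G-MDSCs, and 459 ± 100.5 against 1320 ± 163 CPM in Nlrp3-/- mice (SD, n = 4 each). Its log2 fold changes were 1.43 (SE 0.26, adjusted p = 0.000507) and 1.41 (SE 0.18, adjusted p = 1.63e-05 by edgeR's quasi-likelihood test), without overlap in either genotype. Irf2 averaged 324 ± 51.0 against 611 ± 76.8 CPM in WT and 233 ± 45.4 against 400.0 ± 33.4 CPM in Nlrp3-/- mice, log2 fold changes of 0.92 (adjusted p = 0.000574) and 0.67 (adjusted p = 0.00265 in the edgeR test). Irf9 averaged 172 ± 32.9 against 275 ± 83.7 CPM in WT, where WT replicate 2 of the G-MDSCs lay inside the M-MDSC range, and 193 ± 34.4 against 320.5 ± 37.2 CPM in Nlrp3-/- mice, without overlap. Its log2 fold changes were 0.68 (adjusted p = 0.0224) and 0.62 (adjusted p = 0.00458 in the edgeR test). The former lost its call without M-MDSC WT replicate 2, 3 or 4 or G-MDSC WT replicate 1 (0.51 to 0.61, adjusted p = 0.0664 to 0.0879), and the latter dropped to 0.53 and under 1.5-fold without M-MDSC Nlrp3-/- replicate 1.

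Irf3 differed by 0.00 (SE 0.19) in WT and −0.01 (SE 0.20) in Nlrp3-/- mice on the log2 scale, with a sign that depended on the scaling. Irf4 differed by −0.11 (SE 0.25) and −0.16 (SE 0.20). Irf7 differed by 0.31 (SE 0.17, adjusted p = 0.142) and 0.40 (SE 0.17, adjusted p = 0.0571 by edgeR's quasi-likelihood test).

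In each genotype 3 of the 8 genes were called higher and 2 lower in G-MDSCs. The background was 53.3% of 9739 genes in WT (26.3% higher, 27.1% lower) and 51% of 10071 genes in Nlrp3-/- mice (23.7% higher, 27.4% lower), so the share of IRF genes called, 5 of 8, was near that of all genes. The subsets did not overlap for 4 of the 8 genes in WT and 5 in Nlrp3-/- mice, against 51.8% and 50.2% of all genes. TMM factors were 1.2004 to 1.459 in M-MDSC and 0.723 to 0.805 in G-MDSC libraries, and S100a8 and S100a9, the subunits of calprotectin, took 7.32% to 11.0% of the counts in G-MDSCs and 0.124% to 0.760% in M-MDSCs. With library size only the median of all genes moved by −0.74 in WT and −0.71 in Nlrp3-/- mice on the log2 scale. Irf1 then kept its call at 0.67 and 0.69 and Irf5 and Irf8 theirs, whereas Irf2 stood at 0.17 in WT and −0.05 in Nlrp3-/- mice, Irf7 at −0.44 and −0.32 and Irf9 at −0.06 and −0.10, none of them called, and Irf3 and Irf4 were called lower in G-MDSCs. The higher levels of Irf2 and Irf9 in G-MDSCs, and the positive but uncalled values of Irf7, are thus relative to the median gene.

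Since both subsets came from every mouse, the difference in log2 CPM between G-MDSCs and M-MDSCs was also taken within each mouse. On the TMM scale it was positive in 8 of 8 mice for Irf1, Irf2, Irf7 and Irf9 and negative in 8 of 8 mice for Irf5 and Irf8, though the fitted signs of Irf7 and Irf9, and of Irf2 in Nlrp3-/- mice, turn with library size only. For Irf3 it was positive in 4 of 8 mice and for Irf4 in 3 of 8. The difference of Irf1 was 2.27, 0.91, 0.75 and 1.44 in WT mice and 1.81, 1.40, 1.57 and 1.39 in Nlrp3-/- mice. The WT mice spread more widely and enclosed the Nlrp3-/- mice. The difference of Irf5 was −1.97, −2.29, −2.20 and −1.92 in WT mice and −1.92, −1.42, −1.28 and −1.81 in Nlrp3-/- mice. Irf5 had the widest gap between genotypes, 0.49 (exact two-sided permutation test, p = 0.0571, adjusted p = 0.457 over the 8 genes, where 0.0286 is the smallest p that 4 mice against 4 allow).

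**Figure D4:**
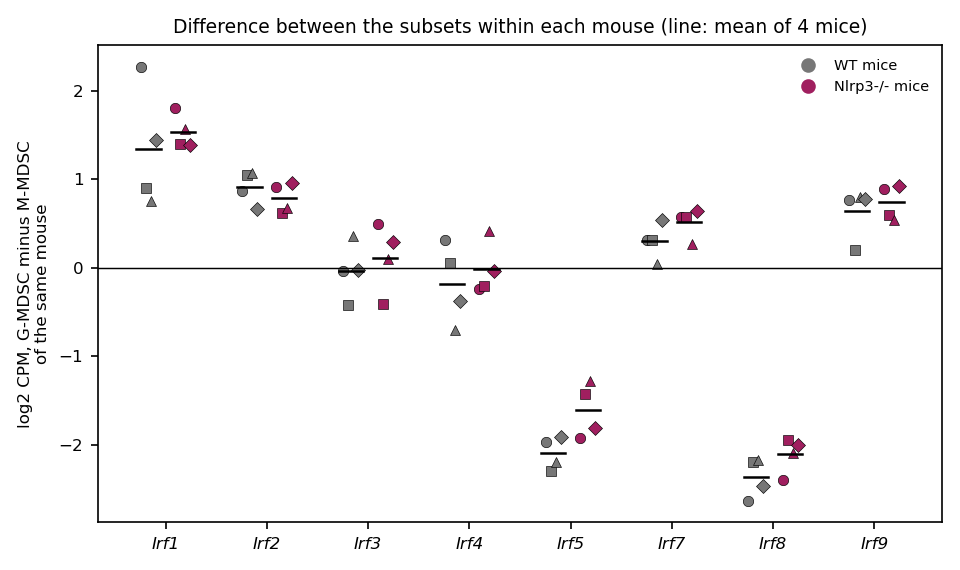
Difference in log2 CPM (TMM-scaled, prior count of 2) between G-MDSCs and M-MDSCs of the same mouse for each IRF gene, with WT mice in gray, Nlrp3-/- mice in purple, and a line for the mean of 4 mice. Points for Irf1, Irf2, Irf7 and Irf9 lie above 0 and those for Irf5 and Irf8 below 0 in all 8 mice; with library size only the fitted differences of Irf7 and Irf9, and of Irf2 in Nlrp3-/- mice, change sign.

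Whether the genotype acted differently in the subsets was tested as an interaction in a model of all 16 samples. None of the 8 IRF genes passed edgeR's quasi-likelihood test, with adjusted p-values of 0.992 to 0.996 and unadjusted p-values of 0.252 to 0.852, so 0 of 8 were below an unadjusted 0.05, and 0 passed by DESeq2. The background was 3 of 10696 genes, or 0.028%, with 480 genes below an unadjusted p of 0.05. The difference in log2 fold change, G-MDSCs minus M-MDSCs, was largest for Irf5 at 0.41 (SE 0.35) and Irf8 at 0.30 (SE 0.26), and was −0.13 (SE 0.23) for Irf2 and 0.10 (SE 0.32) for Irf1. The calls of Irf1 in M-MDSCs alone and of Irf2 in G-MDSCs alone are therefore not shown to be differences between the subsets.

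Genes around the family were followed in lists of their own. The share called over all genes tested, against which each list is read, was 10.6% and 16.4% between genotypes (M-MDSCs and G-MDSCs), mostly lower, and 53.3% and 51% between subsets (WT and Nlrp3-/- mice). Upstream, 9 interferon receptor and JAK-STAT genes were tested. Between genotypes 0 were higher and 0 lower in M-MDSCs, and 0 were higher and 1 lower in G-MDSCs. The list had a median of 0.24 in M-MDSCs and −0.07 in G-MDSCs, and the medians over all genes are those given above. Between the subsets 3 were higher and 2 lower in G-MDSCs in WT mice and 3 and 3 in Nlrp3-/- mice, or 55.6% and 66.7% of the list. With library size only these subset values, like those of the lists that follow, shift with the median of all genes given above. Jak1, a kinase of interferon receptors, stood 1.68 and 1.51 higher in G-MDSCs on the log2 scale, and Tyk2, a kinase of the type I receptor, differed by −2.05 and −1.91.

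Of the sensors, adaptors and kinases that activate Irf3, Irf5 and Irf7, 0 of 19 were higher and 1 was lower in Nlrp3-/- M-MDSCs. This was the RNA sensor Ifih1 (−0.61, adjusted p = 0.0346 by edgeR's quasi-likelihood test). In G-MDSCs 2 of 18 were higher and 0 lower, namely Unc93b1, the chaperone of endosomal Toll-like receptors (265 to 568 CPM, log2 fold change 1.01, adjusted p = 0.0267), and Tmem173, which encodes the DNA-sensing adaptor STING (15.5 to 29.3 CPM, 0.84, adjusted p = 0.0316 in the edgeR test). These are 5.26% and 11.1% of the list, less than over all genes. The medians were 0.14 and 0.21. Between the subsets 3 were higher and 7 lower of 18 in WT mice, and 4 and 9 of 19 in Nlrp3-/- mice, or 55.6% and 68.4% called. Tmem173 was lower in G-MDSCs by −2.73 and −2.24, and Ikbkb, the kinase of Irf5, by −1.86 and −2.07.

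Among 13 partners and regulators of IRF proteins, 0 were higher and 2 lower in Nlrp3-/- M-MDSCs. These were Cbl, a ubiquitin ligase (164 to 79.5 CPM, −1.02, adjusted p = 0.00477), and Irf2bp2, a corepressor that binds Irf2 (113 to 55.1 CPM, −0.997, adjusted p = 0.0258 by edgeR's quasi-likelihood test). In G-MDSCs 0 were higher and 3 lower, with Cbl at −1.21 (adjusted p = 0.000274), Irf2bp2 at −1.32 (adjusted p = 0.00214) and the ETS factor Ets1 at −0.61 (adjusted p = 0.0284). With 15.4% and 23.1% of 13 genes called against 10.6% and 16.4% of all genes, the list stood near the background. The medians were 0.09 and −0.02. Spi1, which encodes PU.1, stood higher in G-MDSCs by 1.79 in WT and 1.35 in Nlrp3-/- mice, and Batf3, a partner of Irf8 in dendritic cells, differed by −2.82 and −2.35, with 4 higher and 2 lower in WT and 5 and 1 in Nlrp3-/- mice (46.2% called in each).

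The interferon genes, the main targets of Irf3 and Irf7, were close to absent from these 3′ end libraries. Of 21 interferon genes, 19 were at 0 in every M-MDSC library of either genotype and 20 in every G-MDSC library. Ifng, the type II interferon that T and NK cells mainly make, averaged 1.86 and 2.25 CPM in WT and Nlrp3-/- M-MDSCs and 1.96 and 2.04 CPM in WT and Nlrp3-/- G-MDSCs, and all 21 genes together summed to 0 to 4.39 CPM in a library.

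Interferon-stimulated genes with an ISRE were called in both directions. Of 26 tested in M-MDSCs, 1 was higher and 3 were lower in Nlrp3-/- mice. Ifit3, an antiviral effector, rose from 26.7 to 63.9 CPM (1.28, adjusted p = 0.00137), while Xaf1, a proapoptotic gene, fell from 36.0 to 9.52 CPM (−1.90, adjusted p = 0.0125 by edgeR's quasi-likelihood test). In G-MDSCs 1 of 23 was higher and 6 were lower. Ifit3 again rose, from 126 to 336 CPM (1.34, adjusted p = 0.00494), and Trim30a fell from 1271 to 718 CPM (−0.91, adjusted p = 0.0017), as it did in M-MDSCs (−0.61, adjusted p = 0.0398 in the edgeR test). Eif2ak2, the RNA-activated kinase PKR, fell in both as well (−0.66, adjusted p = 0.0462, and −1.03, adjusted p = 0.0153). The called genes were 15.4% and 30.4% of those tested, against 10.6% and 16.4% of all genes, which were also called lower more often than higher. The medians of 0.29 and 0.22 were above 0, so the called genes and the median of the list differed in sign. Between the subsets 12 were higher and 9 lower of 26 in WT mice (80.8% called, against 53.3% of all genes) and 11 and 6 in Nlrp3-/- mice (65.4%, against 51%), with the interferon-induced genes Rsad2 at 3.57 and 3.45, Rtp4 at 2.71 and 2.65 and Oasl2 at 2.37 and 2.41 higher in G-MDSCs, and Mx2 at −3.48 in WT and Mx1 at −4.92 in Nlrp3-/- mice.

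Of 20 antigen presentation and GBP genes linked to Irf1, 1 was higher and 0 lower in Nlrp3-/- M-MDSCs, where Tap1, a subunit of the peptide transporter, rose by 0.60 (adjusted p = 0.0277 by edgeR's quasi-likelihood test). In G-MDSCs 0 were higher and 1 lower, the GTPase gene Gbp7 (−0.68, adjusted p = 0.0111). Either count is 5% of the list, against 10.6% and 16.4% of all genes. The medians were 0.22 and 0.09. Between the subsets 4 were higher and 6 lower in WT and 4 and 4 in Nlrp3-/- mice (50% and 40% called), with Gbp7 higher in G-MDSCs by 1.35 and 1.30 and the immunoproteasome subunit Psmb10 lower by −2.23 and −2.03.

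Of 11 monocyte genes linked to Irf8, 0 were higher and 8 lower in G-MDSCs in WT mice and 0 higher and 7 lower in Nlrp3-/- mice, and the others were not called. These are 72.7% and 63.6% of the list, where 27.1% and 27.4% of all genes were called lower, and the medians were −1.55 and −2.27 against −0.05 and −0.12 over all genes. Cx3cr1, the fractalkine receptor, differed by −6.90 and −7.22, Ctss, which encodes cathepsin S, by −3.28 and −3.18, and the transcription factor Klf4 by −3.66 and −3.59. The monocytic markers that check the sort share genes with this list. The subsets were sorted as monocytic and granulocytic, so lower values of monocyte genes in G-MDSCs were largely set in advance. These shares are therefore no result about Irf8. Between genotypes 0 were higher and 1 lower in M-MDSCs (Klf4, −0.85, adjusted p = 0.0105), and 1 was higher and 1 lower in G-MDSCs (Csf1r, the M-CSF receptor, 0.64, adjusted p = 0.0388, and Ly86, −1.75, adjusted p = 0.0284 by edgeR's quasi-likelihood test).

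**Figure D5:**
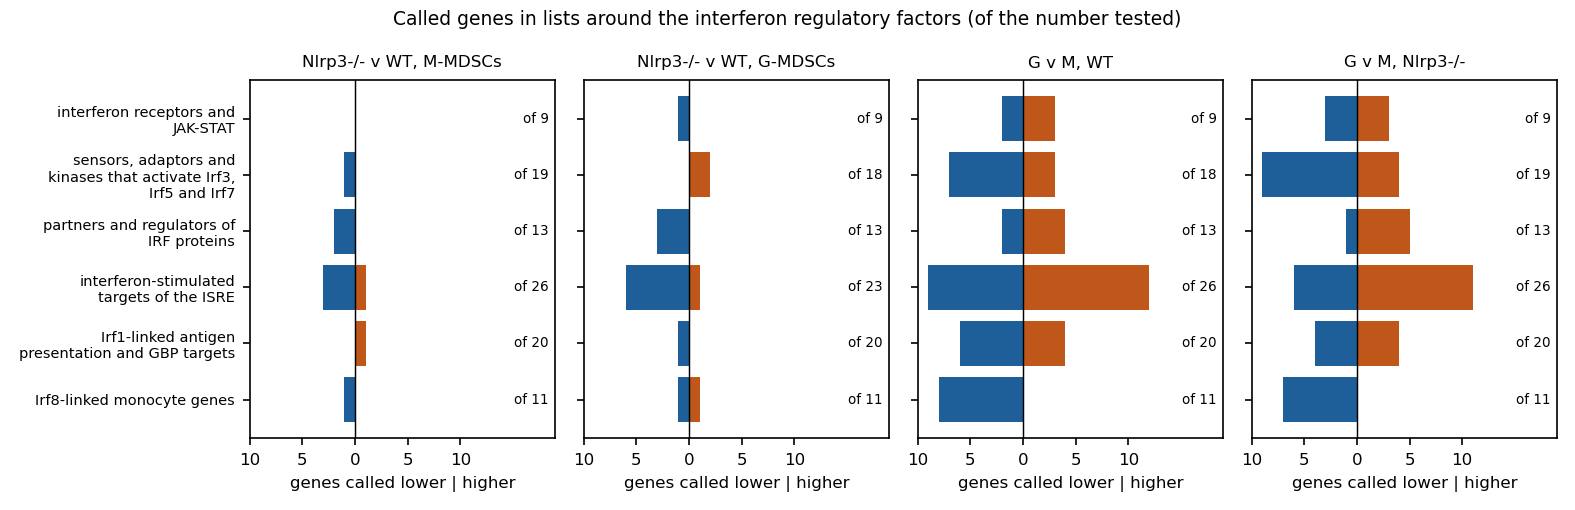
Number of genes called lower (blue, left) and higher (orange, right) in 6 lists around the IRF genes, with the number tested at the right of each row, for the genotype comparison in each subset and the subset comparison in each genotype. Most ISRE targets were not called between genotypes (4 of 26 in M-MDSCs and 7 of 23 in G-MDSCs were). Between the subsets, the Irf8-linked monocyte genes that were called were all lower in G-MDSCs.

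The genes whose log2 CPM followed each IRF gene most closely over the 16 libraries were named by Pearson's r, as a description. The libraries share their subset, genotype and mouse, so a high r can arise from these alone, and the correlation of the deviations from the group means is given after it. For Irf1 they were Tbc1d25 (0.97, 0.72 within groups), Ppm1a (0.96, 0.74) and Saraf (0.95, 0.62). For Irf2 they were Braf (0.98, 0.82), Lyst (0.98, 0.83) and Ptprc (0.98, 0.88). For Irf3 they were Sharpin (0.92, 0.83) and Slc35c2 (0.91, 0.67). Irf4 had the loosest companions, Cd163 (0.85, 0.74), Axl (0.82, 0.58) and Nr1h3 (0.82, 0.68), of which Cd163 is among the red pulp macrophage markers above.

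For Irf5 the closest genes were Idh1 (0.98, 0.83), Adgre4 (0.98, 0.86) and Hspe1 (0.97, 0.85). For Irf7 they were Hcfc1r1 (0.97, 0.85), Egln2 (0.96, 0.83) and Atp6v0b (0.96, 0.86). For Irf8 they were Myof (0.99, 0.65), Limd1 (0.99, 0.47) and Pld4 (0.98, 0.51), and for Irf9 Cyth4 (0.95, 0.87), Neurl3 (0.95, 0.91) and Psd4 (0.94, 0.93). Within the family Irf5 and Irf8 were alike (r = 0.89 over 16 libraries), but within groups their deviations had r = −0.37. Irf7 and Irf9 kept 0.72 over all libraries and 0.81 within groups, and Irf2 and Irf5 ran opposite at −0.90 and −0.75.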

How the data were processed

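The authors extracted RNA from the sorted cells of single mice, made QuantSeq 3′ FWD libraries (300 ng RNA, 15 or 17 amplification cycles, not given per library), mapped the reads to mm10 with HISAT2 2.1.0 and counted them by strand with htseq-count. They deposited the raw counts of 24421 symbols per library. Totals were 2295967 to 6079866 (median 4839508.5), and limits of 3 counts cover counting error only. Among 24 pairs of libraries of a group 0 were identical (chi-square per degree of freedom 6.76 to 50.6). Groups were taken from the sample labels.

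The deposited counts were fitted with edgeR 4.0.16 under R 4.3.3 (filterByExpr, TMM, quasi-likelihood test, Benjamini-Hochberg adjustment over all genes tested) and, as an alternative, DESeq2 1.42.0. The standard error is that of the log2 fold change. Log2 CPM used a prior count of 2. Figures were drawn with matplotlib 3.10.9. The other alternatives were other scalings, filters, tests and models, a correction for GC content and length by splines with 4 degrees of freedom each, the replicate number as a block, and leaving out each library. Annotation was GENCODE for mm10 (24021 symbols matched, 98.4%), and promoters were RefSeq windows. In GENCODE, Irf3, Irf5 and Irf7 overlap genes of the opposite strand, which counting by strand keeps apart. Irf9 and Rnf31 share bases of the same strand there, at the start of Irf9. Reads from such bases cannot be assigned if the gene set that the authors counted holds the same overlap, which was not checked. Scripts were tested on simulated data. All 8 IRF genes are named in every comparison, with Nlrp3, the 3 closest genes of each by correlation, and at most 4 genes of a list, those with the smallest p; some items that this rule would name are not reported here. The members and lists were chosen with earlier results of these data known. Where nothing else is said, p-values measure the spread between libraries of different mice within a group. The reported fits between subsets and of the interaction did not pair the libraries of a mouse, and the mouse as a block was an alternative.

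Same-numbered M-MDSC and G-MDSC libraries come from the same mouse by their labels (correlation of their deviations over 10696 genes 0.097 to 0.397 in WT and 0.0082 to 0.382 in Nlrp3-/- mice), and the block changed no call between subsets. Same-numbered WT and Nlrp3-/- mice are different animals.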

Additional observations from a re-analysis of the deposited data

Results flagged for a closer look

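In 1 of 32 groups of 4 libraries (8 genes in 4 groups) a value stood apart from the other 3 by Dixon's test. This was Irf5 in WT G-MDSC replicate 4, at 49.3 CPM against 36.5 to 37.8 CPM in the other 3, a gap of 0.900 of the group's range, which is above the 95% critical value for 4 samples. Chance gives such a value in about 1 in 20 groups. The library was among those that overlapped the Nlrp3-/- values of Irf5. No IRF gene had a genotype effect that differed between subsets by the interaction test.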

How the results depend on the processing

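Of 920 alternative values for single IRF genes, 791 kept their direction and side of the threshold, 44 lost a call, 16 gained one and 69 changed sign. The count of genes called higher in Nlrp3-/- M-MDSCs (3) became 1 with the GC content and length correction, 0 with the replicate block, 0 with both, and 0 to 3 without a library. In G-MDSCs the count called higher (2) became 0 with the correction, 0 with block and correction, and 1 to 4 without a library (4 without WT replicate 1), and the count called lower (1) became 0 with library size only, 0 with the correction and 0 with block and correction. Between subsets, library size only gave 1 higher and 4 lower in WT and 1 and 4 in Nlrp3-/- mice, and upper-quartile scaling gave 1 higher in Nlrp3-/- mice. The cause was not tested.

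The replicate block, which joins different mice here (correlation of same-numbered libraries −0.45 to 0.018 in M-MDSCs and −0.26 to −0.044 in G-MDSCs), took the adjusted p by edgeR of Irf1, Irf3 and Irf7 in M-MDSCs to 0.0725, 0.0585 and 0.0785 and changed no IRF call in G-MDSCs.

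Signs changed where values were near 0. Irf8 in M-MDSCs between genotypes was −0.018 with DESeq2 size factors, −0.018 with DESeq2, −0.0015 with at least 10 counts in every sample, −0.19 with the correction, −0.15 with block and correction and −0.021 in the model of all 16 samples (−0.13 to 0.19 without a library). Irf5 there was −0.035 with the correction and −0.15 with block and correction (−0.085 to 0.42 without a library), and Irf9 in G-MDSCs was −0.030 to 0.30 without a library. Between subsets in WT mice, Irf3 was 0.0011 with DESeq2 size factors, 0.0034 with DESeq2, 0.069 with the correction and 0.054 with block and correction (−0.16 to 0.10 without a library), Irf4 −0.40 to 0.065 without a library, and with library size only Irf7 was −0.44 and Irf9 −0.062. In Nlrp3-/- mice Irf3 was 0.027 with DESeq2 size factors, 0.027 with DESeq2, 0.046 with the correction, 0.0027 with the block, 0.064 with both and 0.095 in the model of all 16 samples (−0.13 to 0.090 without a library), and with library size only Irf2 was −0.046, Irf7 −0.32 and Irf9 −0.10. The interaction of Irf4 was −0.0030 with DESeq2 size factors, −0.011 with library size only and −0.0031 with DESeq2 (−0.092 to 0.37 without a library), that of Irf9 −0.018, −0.033, −0.018 and, with the correction, −0.0020 (−0.21 to 0.23), that of Irf1 −0.013 with the correction (−0.15 to 0.41), that of Irf3 −0.027 with the correction (−0.19 to 0.27), and that of Irf7 −0.067 to 0.30 without a library. Per-mouse differences between genotypes were −0.0011 to 0.50 for Irf1, −0.013 to 0.33 for Irf4 and −0.043 to 0.17 for Irf9 without a mouse.

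Over all genes, calls in M-MDSCs numbered 1060, but 425 with the block, 652 with the correction and 37 with both, and in G-MDSCs 1522, but 985, 984 and 392. Without a library they were 450 to 1782 in M-MDSCs. The share of higher calls was 33.1% in M-MDSCs, 54.6% with library size only, 43.3% with the correction and 15.8% with the block, and 28.6% in G-MDSCs, where it was 48.2%, 39.1% with upper-quartile scaling, 43.4% in the model of all 16 samples and 43.8% with the correction. Between subsets it was 49.2% in WT and 46.4% in Nlrp3-/- mice, and 18.7% and 18.6% with library size only.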
